A study of Mus musculus with 12 samples.

Results

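The genes described here are Aplnr, the receptor for the peptide apelin, its ligand gene Apln, and 8 genes that mark endothelium in general: Pecam1, Cdh5, Kdr, Tek, Tie1, Flt1, Esam and Emcn. They were chosen by symbol, and all 10 were found once among the 56495 genes of the deposited table. They were measured by RNA sequencing of ribosome-depleted total RNA from the urogenital sinus of E18.5 mouse embryos, the fetal tissue from which the urethra and, in males, the prostate form. The 12 libraries formed 4 groups of 3: females of the genotype Inv(Itga6-nsi)d11lac, males of that genotype, wild type females and wild type males. The genotype, called mutant here, is named as an inversion between Itga6 and a site called nsi together with an allele called d11lac. The labels give neither the number of copies carried nor the embryos behind each replicate, so p-values reflect only how far these libraries scatter, which may be technical. The dissection left out the bladder and took in the proximal part of the urethra, and in females the vagina too, so male and female samples differ in the organs they hold.

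Endothelial cells line blood and lymph vessels. Apelin, a secreted peptide, and apela (also called Elabela or Toddler) signal through the G protein-coupled receptor encoded by Aplnr, which is enriched in veins and growing vessels of the mouse embryo, while Apln marks sprouting tip cells. Kdr and Flt1 encode the receptors for VEGF, Tek encodes the angiopoietin receptor TIE2 and Tie1 its partner receptor. Pecam1, Cdh5 and Esam encode adhesion molecules of the contacts between endothelial cells, and Emcn encodes a sialomucin of venous and capillary endothelium.

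The 10 genes were proposed with results of these libraries in view, so their differences between mutant and wild type are given as a description, with no p-value. How many of them passed the threshold is printed in a single place, beside the share of all genes that did, and supports nothing. Values are FPKM (fragments counted per length of transcript and per depth of library) after division of the libraries by their median ratios, called scaled FPKM, and fold changes are on log2(scaled FPKM + 0.5), which understates the change of low genes. A gene is said to be called when its adjusted p is under 0.05 in the limma fit across all 13904 genes tested, and all 10 genes were tested. Bulk tissue cannot tell fewer endothelial cells apart from less of an RNA in each cell.

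Some libraries stood apart in ways that touch these genes. Relative sequencing depth, with the deepest library at 1, was 0.582 to 0.717 in the 6 mutant libraries and 0.812 to 1 in the 6 wild type libraries, so depth and genotype did not overlap. In mutant female 1 the 8 endothelial markers summed to 70.1 scaled FPKM, against 115 to 142 in the other 11 libraries, while 10 epithelial markers summed to 995, against 341 to 635. Red cell genes summed to 2747 to 12065 in mutant libraries and to 699.8 to 12620 in wild type libraries, with both of the lowest sums in wild type males 1 and 2. The RNA Rn7sk took 13.8%, 14.9% and 12.2% of the FPKM sum in mutant males 1 and 3 and wild type male 1, and 0% in the other 9 libraries. Mutant male 3 had the lowest FPKM sum, 276713, against 336016 to 401093 in the other 11, and was scaled by a divisor of 0.75. The part of these differences in the results was not tested, and values without mutant female 1 are given beside those that it moved most. Xist reached at most 0.24 scaled FPKM in the 6 male libraries, against 5.51 to 10.5 in the 6 female ones, so no library went against its labelled sex. Genes of the Y chromosome differed by genotype among males. Uty had a mean of 4.23 scaled FPKM in mutant males, against 9.02 in wild type males. For Eif2s3y the means were 6.25 and 13.9, and for Ddx3y 8.56 and 15.2. Kdm5d did not go with them, at 4.01 and 3.79. How these differences bear on the comparisons of genotypes was not tested.

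The RefSeq promoter table (GRCm38.p6) held 6 of the 10 genes: Apln, Kdr, Tek, Tie1, Flt1 and Emcn. The 250 bases before the RefSeq start are shown for Tek, Kdr and Flt1, which like Tie1 encode receptor tyrosine kinases. These 3 were chosen with their levels here known. Tek was lower in every mutant library than in every wild type library, while Kdr and Flt1 overlapped when both sexes were pooled. A link between the letters and these levels was not tested. Capitals mark GGAAG or its reverse complement CTTCC, letters that contain the GGAA core of Ets factors, which bind many endothelial promoters.
Tek, chr4:94739039-94739288, plus strand: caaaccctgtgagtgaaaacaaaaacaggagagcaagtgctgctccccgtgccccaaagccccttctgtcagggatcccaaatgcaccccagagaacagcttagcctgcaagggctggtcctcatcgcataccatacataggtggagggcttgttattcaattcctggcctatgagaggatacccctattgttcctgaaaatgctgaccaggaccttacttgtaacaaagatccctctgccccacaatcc
Kdr, chr5:75978456-75978705, minus strand: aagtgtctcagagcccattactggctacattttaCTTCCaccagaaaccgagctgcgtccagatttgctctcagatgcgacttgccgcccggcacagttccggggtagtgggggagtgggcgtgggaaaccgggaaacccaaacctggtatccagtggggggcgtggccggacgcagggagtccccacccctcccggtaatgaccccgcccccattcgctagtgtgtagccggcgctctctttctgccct
Flt1, chr5:147726012-147726261, minus strand: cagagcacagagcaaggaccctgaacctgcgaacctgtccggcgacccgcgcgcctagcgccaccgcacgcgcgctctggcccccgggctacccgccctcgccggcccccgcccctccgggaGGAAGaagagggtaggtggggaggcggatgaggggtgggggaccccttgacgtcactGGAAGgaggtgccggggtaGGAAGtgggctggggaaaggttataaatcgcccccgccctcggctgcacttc
Read on both strands, the letters occurred 0 times in the Tek window, 1 time in that of Kdr and 3 times in that of Flt1. They also occurred 2 times in the window of Emcn, 3 times in that of Apln and 6 times in that of Tie1. Of 32851 mouse promoters of this length, 64.1% hold them. No match says only that these letters are not in this window. The shorter GGAA core, read as ggaa or ttcc, was not counted, and it also stands unmarked in each of the 3 windows shown, that of Tek included.

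Aplnr lies on chromosome 2 (84966569 to 84970267, plus strand, mm39; identifier ENSMUSG00000044338). Its level was 4.71, 7.43 and 4.62 scaled FPKM in the 3 mutant females, against 22.1, 20.5 and 12.8 in the wild type females. Mutant males had 6.11, 6.60 and 11.4 scaled FPKM, against 22.7, 24.6 and 11.98 in wild type males. Every mutant library thus lay below every wild type library, as for 10.3% of all genes. Mutant male 3 came close to wild type male 3. Among the wild types, both libraries with replicate number 3 were the lowest. The group means were 5.58 ± 1.60 in mutant females, 8.02 ± 2.90 in mutant males, 18.48 ± 4.97 in wild type females and 19.8 ± 6.8 in wild type males (SD, n = 3 each). The log2 fold change of mutant over wild type was -1.63 (SE 0.32) in females and -1.24 (SE 0.32) in males, 3.10-fold and 2.35-fold lower. Over both sexes it was -1.44 (SE 0.22), the 33rd lowest of 13904 genes. With 1 library left out at a time the fold change lay between -1.87 and -1.49 in females, between -1.55 and -1.05 in males and between -1.59 and -1.34 over both sexes.

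**Figure D1:**
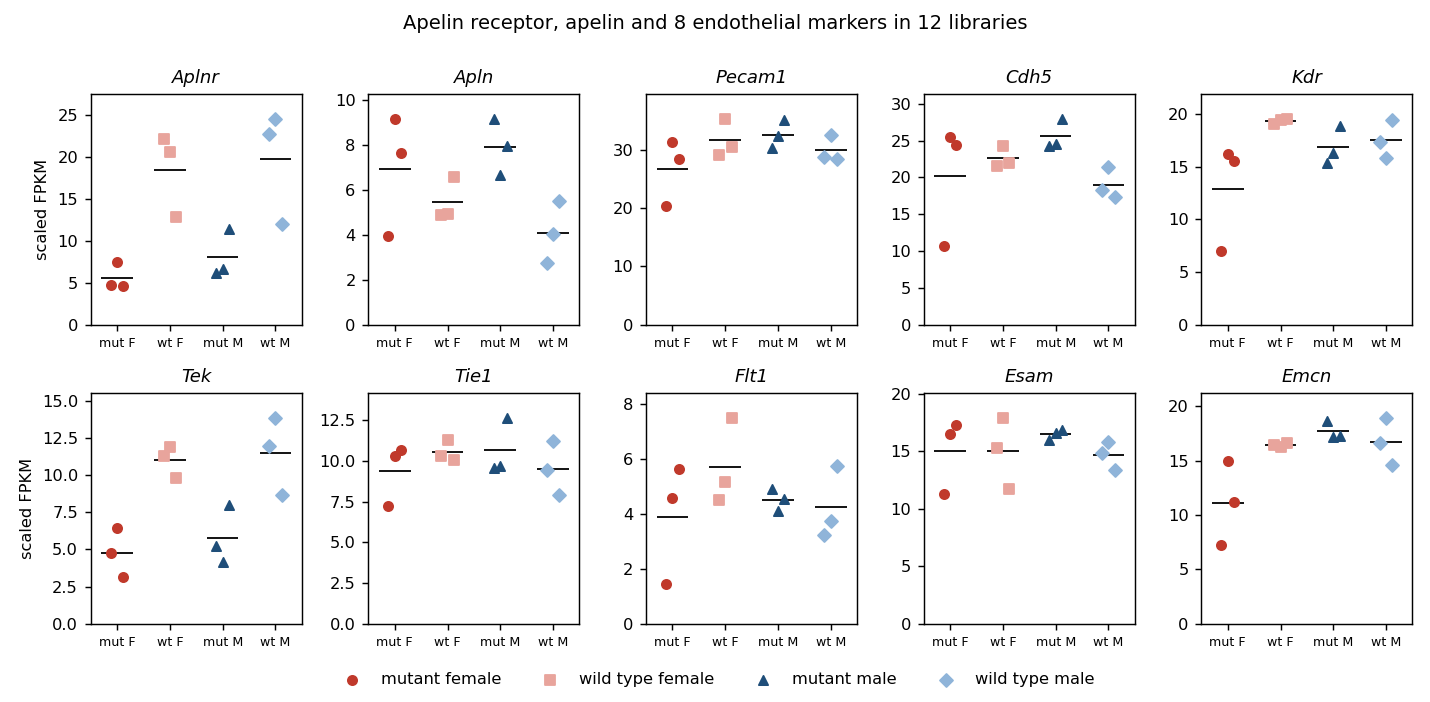
Scaled FPKM of Aplnr, Apln and the 8 endothelial markers in each of the 12 libraries, with 1 panel per gene. Points are libraries, bars are means of 3, and the y axis of each panel starts at 0 with its own range (mut, mutant; wt, wild type; F, female; M, male). Aplnr and Tek are lower in all 6 mutant libraries than in all 6 wild type libraries, while the other markers overlap between genotypes except within 1 sex.

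Apln moved the other way. Apln (chromosome X, 47114023 to 47123730, minus strand, mm39) had 3.94, 9.17 and 7.64 scaled FPKM in mutant females, against 4.86, 4.94 and 6.55 in wild type females. In males the values were 9.17, 6.67 and 7.95 in mutants, against 2.75, 4.02 and 5.48 in wild types. The male groups did not overlap, as for 21.1% of all genes with mutants higher. In females 2 mutants lay above all wild types and mutant female 1 below them. The log2 fold change was 0.26 (SE 0.28) in females, 0.91 (SE 0.28) in males and 0.58 (SE 0.20) over both sexes. Without mutant female 1 it was 0.59 in females and 0.75 over both sexes. After a correction for GC content and length it was 0.84 in males and 0.49 over both sexes. With 1 library left out at a time it lay between 0.03 and 0.59 in females, between 0.69 and 1.13 in males and between 0.47 and 0.75 over both sexes.

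Among the 8 endothelial markers, Tek differed most. Tek (chromosome 4, 94627526 to 94763213, plus strand, mm39) had 4.76, 6.45 and 3.11 scaled FPKM in mutant females, against 11.3, 11.9 and 9.80 in wild type females. Mutant males had 5.20, 4.15 and 7.97, against 11.95, 13.9 and 8.65 in wild type males. As for Aplnr, each mutant library lay below each wild type library, mutant male 3 was the highest mutant and wild type male 3 the lowest wild type. The log2 fold change was -1.17 (SE 0.26) in females, -0.96 (SE 0.26) in males and -1.06 (SE 0.19) over both sexes. With the GC and length correction the values were -1.06 in females, -0.91 in males and -0.99 over both sexes. Of all genes tested, 10.3% had every mutant library below every wild type library and 6.80% had every one above.

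The adhesion genes Pecam1, Cdh5 and Esam overlapped between genotypes when both sexes were pooled. Pecam1 had 20.4, 31.4 and 28.4 scaled FPKM in mutant females, against 29.2, 35.4 and 30.5 in wild type females. Mutant males had 30.3, 32.5 and 35.1, against 28.9, 32.6 and 28.4 in wild type males. Mutant female 1 gave the lowest value of the 12, and the other 11 libraries stood within 28.4 to 35.4. The log2 fold change of Pecam1 was -0.26 (SE 0.14) in females, 0.12 (SE 0.14) in males and -0.07 (SE 0.10) over both sexes. It was -0.08 in females and 0.02 over both sexes without mutant female 1.

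Cdh5, which encodes VE-cadherin, had 10.7, 25.5 and 24.4 scaled FPKM in mutant females, against 21.6, 24.3 and 21.9 in wild type females. It had 24.2, 24.5 and 28.0 in mutant males, against 18.3, 21.4 and 17.4 in wild type males. The male groups did not overlap, with mutants higher (as for 21.1% of all genes), and in females the only mutant below the wild types was mutant female 1. The log2 fold change was -0.25 (SE 0.25) in females, 0.42 (SE 0.25) in males and 0.08 (SE 0.18) over both sexes. Without mutant female 1 it was 0.14 in females and 0.28 over both sexes. Esam ranged between 11.3 and 17.2 scaled FPKM in mutants and between 11.7 and 17.9 in wild types, with log2 fold changes of 0.00 (SE 0.17) in females and 0.16 (SE 0.17) in males, where its groups did not overlap, and 0.19 in females without mutant female 1.

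Of the VEGF receptors, Kdr had 7.01, 16.2 and 15.5 scaled FPKM in mutant females, against 19.1, 19.4 and 19.6 in wild type females. The female groups did not overlap, as for 22.2% of all genes with mutants lower. In males the groups overlapped, with 15.4, 16.3 and 18.9 in mutants, against 17.4, 15.8 and 19.4 in wild types. The log2 fold change was -0.65 (SE 0.24) in females, -0.05 (SE 0.24) in males and -0.35 (SE 0.17) over both sexes. The values without mutant female 1 were -0.28 in females and -0.17 over both sexes, and without mutant female 2 it was -0.86 in females. Flt1, the lowest of the 8 markers by its mean over the libraries, had 1.43, 4.57 and 5.63 in mutant females, against 4.49, 5.14 and 7.50 in wild type females. In males Flt1 had 4.92, 4.09 and 4.55 in mutants, against 3.22, 3.73 and 5.75 in wild types, and the groups overlapped. Its log2 fold change was -0.64 (SE 0.37) in females and -0.13 there without mutant female 1. It was 0.12 (SE 0.37) in males and -0.26 (SE 0.26) over both sexes.

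Tie1, the partner receptor of Tek, lay between 7.24 and 12.7 scaled FPKM in mutants and between 7.92 and 11.3 in wild types, with a log2 fold change of -0.01 (SE 0.12) over both sexes. The pair thus differed in these libraries, Tek being lower in every mutant and Tie1 overlapping. Emcn had 7.25, 14.9 and 11.2 scaled FPKM in mutant females, against 16.4, 16.3 and 16.6 in wild type females. In males it had 18.7, 17.2 and 17.2 in mutants, against 16.6, 19.0 and 14.6 in wild types. Its female groups did not overlap, as for 22.2% of all genes with mutants lower. The log2 fold change was -0.60 (SE 0.19) in females and 0.08 (SE 0.19) in males. In females the value was -0.33 without mutant female 1 and -0.16 after the GC and length correction. Over both sexes Emcn had -0.26 (SE 0.14), and -0.12 without mutant female 1.

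By the threshold across all genes, 3 of the 10 genes were called in females (Aplnr, Tek and Emcn, all lower), where 28.0% of the 13904 genes were called, 15.9% as lower. In males 3 were called (Aplnr and Tek lower, Apln higher), where 20.3% of all genes were, 11.6% as lower and 8.64% as higher, and where 22.4% had every mutant below every wild type. Over both sexes Aplnr and Tek were called lower and Apln higher, where 40.6% of all genes were called, 21.6% as lower and 18.9% as higher. Nothing is read from these counts, since the 10 genes were chosen with these contrasts known. They also depend on single libraries: Aplnr and Tek were not called in males without any 1 of mutant males 1 and 2 and wild type males 1 and 2, and each of Apln in males, Apln over both sexes and Emcn in females was not called without any 1 of 8 or 9 libraries. All these calls were also lost with no filter beyond a value above 0 and after the GC and length correction. Those of Apln and Emcn were lost on the deposited scale, and those of Apln under scaling to the library sum. That scaling added calls of Pecam1 and Kdr in females and of Kdr and Emcn over both sexes.

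**Figure D2:**
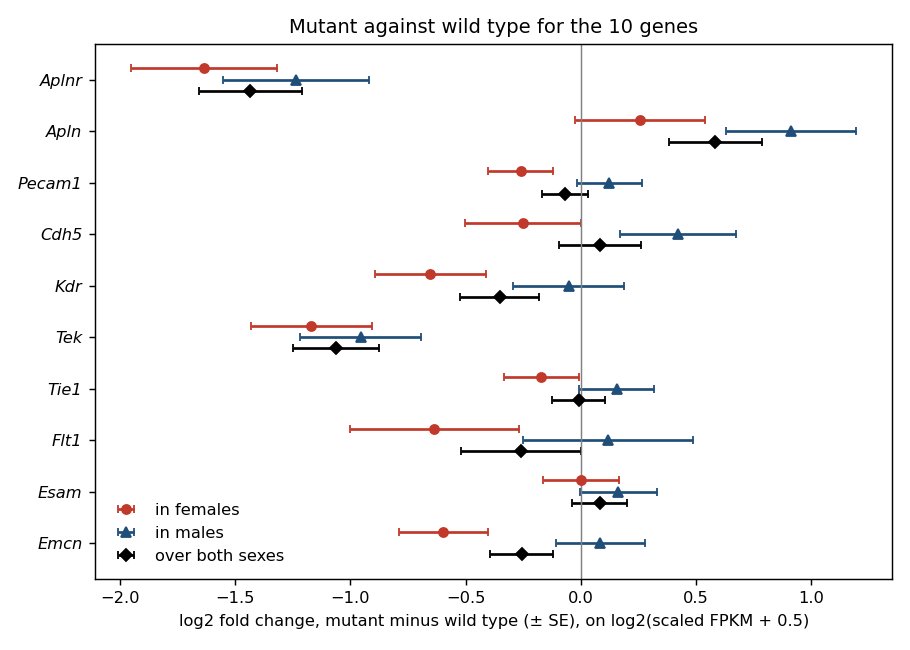
Log2 fold change of mutant minus wild type with its standard error for the 10 genes, in females, in males and over both sexes, from the fit to all 12 libraries. Aplnr and Tek lie near or below -1 in each, Apln lies above 0, and the other 7 markers lie between -0.65 and 0.42.

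Whether Aplnr moved with the general markers was read in each library as its log2 value minus the mean log2 value of the 8 markers. This difference was -0.57, -0.81 and -1.29 in mutant females, against 0.62, 0.39 and -0.17 in wild type females. It was -1.04, -0.89 and -0.39 in mutant males, against 0.77, 0.73 and -0.10 in wild type males. The highest mutant and the lowest wild type were thus separate, by less than the spread within a group (pooled SD 0.41). Mutant minus wild type, the difference was -1.17 in females, -1.24 in males and -1.20 over both sexes. The mean of the 8 markers itself differed by -0.47 in females, 0.01 in males and -0.23 over both sexes. Without mutant female 1 the marker mean differed by -0.21 in females. In males, therefore, Aplnr was 2.35-fold lower where the marker mean was level, and in females it was lower by more than the marker mean was. Over the alternatives, which include other marker sets, the value over both sexes lay between -1.44 and -1.11.

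Tek is itself 1 of the 8 markers, and it went with Aplnr more than with the other 7. The mean of the 7 markers without Tek differed by -0.37 in females, 0.14 in males and -0.11 over both sexes. Tek minus that mean differed by -0.80 in females, -1.10 in males and -0.95 over both sexes (pooled SD 0.43). Aplnr minus Tek lay between -0.01 and 0.61 in mutants and between 0.37 and 0.94 in wild types, ranges that overlap, and differed by -0.37 over both sexes (pooled SD 0.25). Apln minus the mean of the 8 markers differed by 0.72 in females and 0.90 in males.

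**Figure D3:**
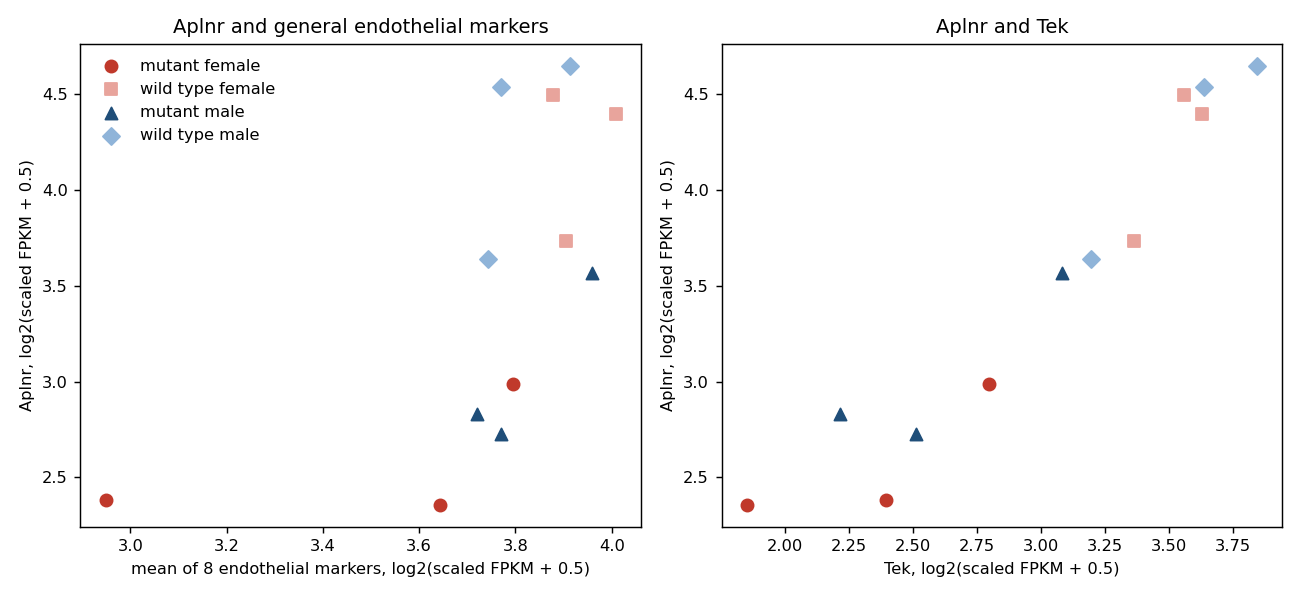
Left, Aplnr against the mean of the 8 endothelial markers in each of the 12 libraries. Right, Aplnr against Tek; both axes are log2(scaled FPKM + 0.5), and neither starts at 0. Marker means of 5 mutant libraries lie in or next to the wild type range while Aplnr lies below it, with mutant female 1 at the far left; Aplnr and Tek are low or high in the same libraries.

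The profiles over the 12 libraries were also compared gene by gene, as the mean absolute difference of log2 values after each gene's own mean was taken off. Among 11435 named genes with at least 2 scaled FPKM on average, the 8 closest to Aplnr were Prnd, Tek, Arxes2, Klhl4, Cenpk, Postn, Agtr2 and Pi15, at 0.20 to 0.30, against a median of 0.75. Tek stood at rank 2, while Kdr, the next of the markers, stood at rank 1296 and Apln at rank 11004. Prnd, which encodes the prion-like protein doppel, had a median of 2.41 scaled FPKM in mutants and 6.18 in wild types, and fell by 1.15 on the log2 scale over both sexes (SE 0.16, adjusted p = 3.8e-04). Agtr2, the angiotensin II type 2 receptor, fell by 1.39 (SE 0.18, adjusted p = 2.1e-04). Postn, a matrix protein of mesenchyme, fell by 1.02 (SE 0.23, adjusted p = 0.0051), a call lost after the GC and length correction (-0.42), as was that of Pi15. These genes were picked for a likeness that holds the genotype difference, so their falls add nothing on Aplnr. Since the pick favoured genes with such falls, their adjusted p are no independent test of them.

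Between the sexes, none of the 10 genes was called in wild types, where 3.18% of all genes were. The closest was Apln, with a log2 difference of -0.41 (SE 0.28) in wild type males minus wild type females (adjusted p = 0.47). Cdh5 was lower in each of the 3 wild type males than in each wild type female (-0.24, SE 0.25, adjusted p = 0.65), as were 14.5% of all genes. For Aplnr the difference was 0.07 (SE 0.32). Over these groups a p that misses the threshold does not show that levels were equal.

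Whether the mutant effect differed between the sexes was asked with the interaction term of the same fit. With the male effect minus the female effect, the 10 genes had values of 0.16 to 0.75, against a median of 0.01 for all genes. Without mutant female 1 the value was 0.24 for Flt1, against 0.75 with it, 0.23 for Kdr, against 0.60, and -0.02 for Esam, against 0.16. Emcn had 0.68 (SE 0.27) and Cdh5 0.67 (SE 0.36), which were 0.42 and 0.28 without mutant female 1, and none of the 10 was called. By limma, 0 of all 13904 genes were called (0%), and 1225 had an unadjusted p under 0.05. For Aplnr the value was 0.40 (SE 0.45), so the larger fold change in females is within its error.

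The ligand, processing and signalling partners of the receptor were followed with a list of 8 genes, 7 of which passed the filter. Furin, a protease that cleaves apelin and apela precursors among many others, rose in mutants, with 25.1, 21.4 and 24.5 scaled FPKM in females, against 10.6, 11.6 and 11.9 in wild type females. In males it had 20.5, 18.7 and 22.2 in mutants, against 12.5, 13.3 and 11.3 in wild types. The groups did not overlap, as for 6.80% of all genes with mutants higher. The log2 fold change of Furin over both sexes was 0.86 (SE 0.07, adjusted p = 3.7e-05). Gna13, a G protein subunit to which the receptor can couple, fell by 0.27 (SE 0.05, adjusted p = 0.0024), lower in mutants of each sex. Mme, a peptidase that cuts apelin, had -0.14, and Gnai2, Arrb1 and Arrb2, which encode an inhibitory G protein and the beta-arrestins, had 0.15, 0.08 and 0.02, none past the threshold. Apela did not pass the filter, with at most 0.83 scaled FPKM in mutants and 1.09 in wild types. Its 3 wild type females stood highest, at 0.96 to 1.09.

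Among 11 genes of VEGF and angiopoietin signalling, 1 rose over both sexes and none fell, where 18.9% of all genes rose and 21.6% fell. Their median log2 fold change was 0.16, against 0.00 for all genes. The gene that rose was Vegfb, at 0.44 (SE 0.12, adjusted p = 0.011). Its call was lost on the deposited scale and after the GC and length correction. The ligands of Tek did not pass the threshold over both sexes: Angpt1 had -0.40 (adjusted p = 0.14), Angpt2 0.38 (adjusted p = 0.067) and Angpt4 0.33 (adjusted p = 0.067). In males Angpt4 rose (0.64, SE 0.19, adjusted p = 0.035), a call lost without any 1 of 7 libraries. In females Nrp1, a VEGF co-receptor, fell (-0.60, SE 0.20, adjusted p = 0.045), a call lost without any 1 of 11 libraries, and its value was -0.31 without mutant female 1. The remaining members had 0.36 for Vegfa, 0.16 for Pgf, 0.17 for Flt4, -0.03 for Vegfc, -0.10 for Nrp2 and -0.41 for Vegfd over both sexes, none past the threshold. Without mutant female 1, Angpt2, Angpt4, Flt4, Pgf and Nrp1 were called over both sexes.

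A wider list of 27 other pan-endothelial genes, 26 of them tested, gave 4 that fell over both sexes, where 21.6% of all genes did, and 0 that rose, with a median of -0.13. The number lower was 9 under scaling to the library sum, and the number higher was 2 without mutant female 1 or with the replicate number as a block. Clec14a, an endothelial lectin, had 3.80, 5.42 and 3.77 scaled FPKM in mutant females, against 8.57, 9.20 and 9.75 in wild type females. In males it had 3.71, 4.13 and 6.45 in mutants, against 6.51, 6.76 and 7.02 in wild types. Like Aplnr and Tek, and like 10.3% of all genes, it was lower in every mutant library than in every wild type library. It fell by 0.76 (SE 0.13, adjusted p = 8.1e-04). The others were Calcrl, the receptor that binds adrenomedullin, at -0.92 (SE 0.26, adjusted p = 0.015), Cd34 at -0.36 (adjusted p = 0.034) and the Ets factor Fli1 at -0.24 (adjusted p = 0.024). After the GC and length correction only the fall of Clec14a held among these 4 (-0.57), while Calcrl had -0.40, Cd34 -0.06 and Fli1 -0.02. In females 4 of the 26 fell (median -0.23), where 15.9% of all genes did. Calcrl was among the 4, at -1.36 and at -0.81 without mutant female 1. The number lower in females was 2 without mutant female 1 and 9 under scaling to the library sum. In males the median was 0.03 and only Fli1 fell, where 11.6% of all genes did. That call was lost without any 1 of 8 libraries and with the replicate block, under which 0 were lower and 3 higher.

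The arterial list had 3 that rose and 2 that fell over both sexes among 10 tested, with a median of 0.20, where 18.9% of all genes rose and 21.6% fell. Efnb2, the arterial ephrin, had 31.7, 33.0 and 45.5 scaled FPKM in mutant females, against 24.1, 23.4 and 25.1 in wild type females. Its rise over both sexes was 0.69 on the log2 scale (SE 0.09, adjusted p = 2.8e-04). Efnb2 stood above all wild types in mutant female 1 too, where the 8 endothelial markers had their lowest sum. Which cells held its RNA was not tested. Sox17, an arterial transcription factor also expressed outside vessels, rose by 0.81 (SE 0.16, adjusted p = 0.0026). It differed strongly by sex as well, by -1.67 (SE 0.23, adjusted p = 0.0031) in wild type males minus wild type females, with means of 3.11 ± 0.05 in wild type males and 11.3 ± 3.0 in wild type females (SD, n = 3 each). Hey2, a Notch target, fell by 0.54 (adjusted p = 0.0089) and the chemokine receptor Cxcr4 fell by 0.31 (adjusted p = 0.014), both calls being lost after the GC and length correction. The third that rose was Unc5b, at 0.30, which was named after its value was seen.

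Of 3 venous genes tested, Nr2f2, the transcription factor COUP-TFII, rose by 0.47 (SE 0.08, adjusted p = 9.0e-04), with no overlap between genotypes, and Ephb4, the receptor of Efnb2, rose by 0.32 (SE 0.07, adjusted p = 0.0042). The call of Ephb4 did not hold on the deposited scale, under scaling to the library sum or after the GC and length correction (0.04). Both genes are also expressed outside endothelium, Nr2f2 in mesenchyme and Ephb4 in epithelium. Over both sexes 18.9% of all genes rose and 21.6% fell, and among 7 genes of tip cells and capillaries 1 rose and 0 fell (median 0.16). It was Gpihbp1, which anchors lipoprotein lipase on capillary endothelium, with 24.2, 33.1 and 37.7 scaled FPKM in mutant females, against 15.0, 19.2 and 16.3 in wild type females. In males it had 36.2, 39.2 and 25.3 in mutants, against 17.2, 17.4 and 16.5 in wild types. The groups did not overlap, as for 6.80% of all genes with mutants higher. The fold change of Gpihbp1 was 0.90 (SE 0.13, adjusted p = 3.3e-04), opposite to that of Aplnr. Of 7 lymphatic genes, against the same shares of all genes, Reln fell, by 0.65 (SE 0.18, adjusted p = 0.013), and 0 rose (median -0.18).

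**Figure D4:**
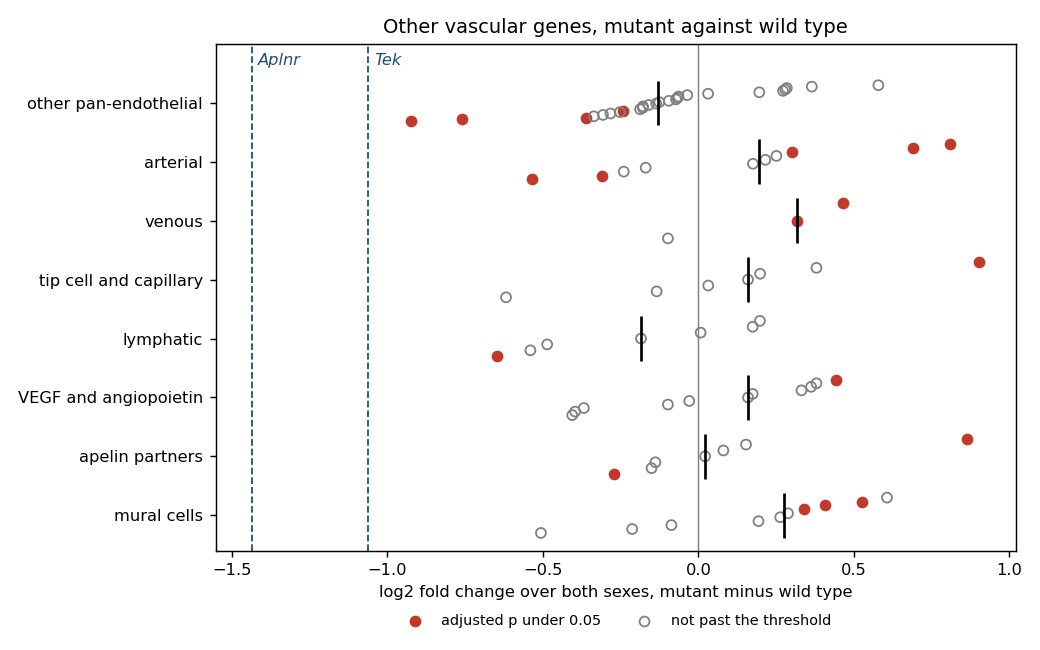
Log2 fold change of mutant minus wild type over both sexes for genes of 8 vascular lists. Each point is a gene, filled where its adjusted p is under 0.05, the black bars are list medians and the dashed lines mark Aplnr (-1.44) and Tek (-1.06). No gene of these lists lies as low as Tek, and list medians lie between -0.18 and 0.32.

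Cells around the vessels and other cell types of the tissue moved as follows over both sexes. Of 10 mural genes, which mark pericytes and vascular muscle, 3 rose (Notch3 by 0.53, Cspg4 by 0.41 and Kcnj8 by 0.34) and 0 fell, with a median of 0.28, and the 3 calls were lost after the GC and length correction. Of all genes 18.9% rose and 21.6% fell over both sexes, for comparison with this count and with those that follow. The number of mural genes called higher without mutant female 1 was 6 over both sexes and 6 in females, where it was 0 with that library. Of 10 epithelial genes 3 rose, Krt5 by 1.54, Cdh1 by 0.93 and Trp63 by 0.38, and their sum was 361 to 995 scaled FPKM in mutants and 341 to 501 in wild types. Of 8 mesenchymal genes Lum and Dcn fell, by 1.03 and 0.70, and of 8 leukocyte genes Adgre1 and Ptprc fell, by 0.50 and 0.47, all 4 calls being lost after the GC and length correction. Of 5 skeletal muscle genes 3 fell, among them Ckm by 1.25, and of 6 smooth muscle genes 0 were called (lowest adjusted p = 0.073). Of 7 red cell genes Hba-a2 rose, at 2.49 (SE 0.70, adjusted p = 0.016). Its log2 fold change was 4.44 in males and 0.55 in females, where the groups overlapped. Wild type males 1 and 2 had the lowest red cell sums, but Hba-a2 was lowest in wild type male 3. Hba-a2 had 17.98 scaled FPKM there, against 48.99 and 60.21 in wild type males 1 and 2. The red cell sum of wild type male 3 was 7213.6. The cause of these Hba-a2 levels was not tested. Each of these lists was detected, with no gene found at 0 in every library, and their part in the values of Aplnr and Tek was not tested.

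Aplnr lies on the same chromosome as Itga6, an end named in the genotype. The other named end, nsi, was not located here. Aplnr starts 13.3 Mb past the end of Itga6 and 10.5 Mb past that of Hoxd13, a gene the genotype does not name, with all positions in mm39. Of 51 genes that start within 500 kb of the start of Aplnr, 17 were tested, and over both sexes 2 rose and 2 fell, with a median of 0.05, where 40.6% of all genes were called. Tnks1bp1 rose by 0.40 (SE 0.08, adjusted p = 0.0020) and Ctnnd1 by 0.17 (adjusted p = 0.026), while Lrrc55 fell by 0.58 (SE 0.18, adjusted p = 0.025) and Med19 by 0.26 (adjusted p = 0.012). The calls of Tnks1bp1 and Ctnnd1 were lost on the deposited scale, and those of Tnks1bp1 and Med19 after the GC and length correction. None of the 17 reached the difference of Aplnr, the lowest being -0.58.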

How the data were processed

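The deposited table holds FPKM values for 56495 genes in 12 libraries, per the file headers, and no others (0 further columns). The authors' tools were Cufflinks 2.2.1, STAR 2.7.10a, bedtools 2.30.0 and cutadapt 4.1, with the builds mm39 and mm10, per the submitters' processing notes; the annotation and strand setting are not given in the sources used here. FPKM hold no read counts, so depth was compared only in relative terms, from the value of 1 read among genes under 0.05 FPKM.

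Libraries were divided by their median ratio over 11897 genes at or above 1 FPKM throughout, and the 13904 genes that reached 1 FPKM in 3 or more libraries were tested on log2(scaled FPKM + 0.5) with limma 3.58.1 in R 4.3.3 (4 group means, intensity trend, two-sided, Benjamini-Hochberg over all genes). The fit was also run on simulated data. These had the same scatter in all groups and no difference of depth or GC content between genotypes, so they say nothing on the effect of such differences. The members and lists were chosen with earlier results of these data known, and the members' genotype differences carry no p. Beside the members, the VEGF, angiopoietin and apelin partner lists were named except for 1 gene that is not reported here, with up to 4 called genes of each other list, the 8 closest profiles and the called neighbours of Aplnr. Alternatives covered pseudocount, filter, scaling, replicate block, a spline correction for GC and length, and each library left out.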

Additional observations from a re-analysis of the deposited data

How the results depend on the processing

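The fits called 2820 genes for males, 3895 for females, 5639 with both sexes and 0 for the difference between sexes, and 442 between wild type sexes. On the deposited scale the counts were 1350, 1666, 3424, 1 and 254, and after the GC and length correction those of the genotype comparisons were 503, 1077 and 2387. The difference between sexes gave 1 gene at a pseudocount of 0.1 and 8 without a filter, and the wild type sexes gave 243 genes at 5 FPKM. With 1 library left out the ranges were 1236 to 3952 in males, 2442 to 4098 in females, 4692 to 6366 over both sexes, 0 to 1 and 162 to 994. Between wild type sexes the count was 994 without mutant female 1 and 162 without wild type female 1. In males it was 1236 without wild type male 1.

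The median of all genes over both sexes moved by -0.12 on the deposited scale and -0.15 under scaling to the library sum. Of the genes called over both sexes, 53.3% were lower in mutants, against 83.9% and 84.9% under these scalings. In males the shares were 57.4%, 91.0% and 81.8%, and in females 56.7%, 86.1% and 92.7%. Relative to the median of all genes, Aplnr stood at -1.45 under both scalings. Under scaling to the library sum the fold changes, with that shift left in, were -0.52 for Kdr and -0.42 for Emcn over both sexes. In females they were -0.50 for Pecam1 and -0.89 for Kdr. Relative to the median of all genes, these values were -0.37 and -0.27 over both sexes and -0.29 and -0.67 in females.

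Of 40 calls among the 67 other named genes tested over both sexes, 18 were lost after the GC and length correction and 0 to 7 under each other alternative; none changed sign. Those of Cd34, Kcnj8, Trp63 and Adgre1 were lost without any 1 of 8, 9, 8 and 7 libraries. The cause was not tested. Same-numbered libraries correlated between -0.23 and 0.32 in their deviations, and 3 of 12 correlated best with their own number. With the replicate number as a block the counts were 2857, 3935, 5770, 0 and 365. Depth is known only in relative terms, so no counting error is given, and low genes such as Flt1 and Apela carry the most of it.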
